A study of Homo sapiens with 12 samples.

Results

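A LATS siRNA was compared with a non-targeting control siRNA in 3 established human kidney lines, A704, HK2 and CAKI-1. The libraries were chosen by their labels: 1 LATS and 1 control library from each line, paired by line, make 6 of the 12 libraries of the series. HK2 was immortalised from normal kidney tubule, whereas A704 and CAKI-1 were derived from renal cancer. Cells of both groups were transfected with siRNA at 25 nM using a lipid reagent, and polyA RNA was taken for sequencing at 48 h. RNA integrity numbers were 10 in 5 of the 6 libraries and 9.6 in the A704 control. The other 6 libraries carry siRNAs against PTPN14, and serve here as a second set of siRNA-treated cells. They are called PTPN14-1 and PTPN14-2 after the sample titles; the sample descriptions give the opposite numbers in all 3 lines, so which siRNA is which is uncertain. Whether the LATS reagent was aimed at LATS1, LATS2 or both is not stated in the labels, and no second LATS reagent is among the samples. Nor do the labels state that the libraries of 1 line came from separate cultures. The p-values set the mean difference between LATS and control siRNA over the 3 lines against a residual spread. That spread is how far siRNA differences vary between lines, estimated from all 12 libraries, PTPN14 included, with information shared across genes. With 1 library per siRNA and line, differing responses of the lines and technical spread cannot be told apart.

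The Hippo pathway is a kinase cascade that limits growth. Its core kinases STK3 and STK4 activate LATS1 and LATS2, which phosphorylate the coactivators YAP1 and WWTR1 (TAZ) and so hold them out of the nucleus. In the nucleus the coactivators bind TEAD factors and drive genes such as CTGF, CYR61 and ANKRD1, and loss of LATS activity is known to raise these targets in many epithelial cells. The study concerned a kidney tumour, mucinous tubular and spindle cell carcinoma.

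Expression is given as FPKM, a length-scaled and depth-scaled fragment count, and tested on the scale log2(FPKM + 1), where differences of low genes are understated. Genes above FPKM 1 in at least 3 of 12 libraries were tested, 12276 in all. Effective depth of the 6 libraries, estimated from the lowest values, ran from 18 to 23.3 M reads. The label of an epithelial cell type was checked on 10 marker genes. Their summed FPKM was 349 to 867 in the control and 435 to 827 in the LATS libraries. The cell adhesion gene CDH1 was at FPKM 0.04 in both HK2 libraries and at most 0.15 in CAKI-1, and EPCAM was under 1 in A704 and CAKI-1. The transcription factor PAX2 was at 0 in both HK2 libraries. Endothelial markers were at most FPKM 1 in all 6 libraries for 5 of 5 genes, with CDH5 at 0. Among 6 leukocyte markers CD68 alone was above 1, and CD3E was at 0. Of the fibroblast markers LUM (46.58 with control, 60.51 with LATS siRNA) and DCN (6.93 and 8.2) were present in HK2, and PDGFRB stood at 1.02 and 1.72 in CAKI-1. Of 4 neuronal markers ELAVL4 was at 0, SNAP25 lay above 1 in each library, and SYT1 did so in HK2 (3.18 and 3.24) and CAKI-1 (6.01 and 4.66).

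LATS1 was the gene with the largest fall and the smallest p. Its FPKM was 4.85 with control and 1.49 with LATS siRNA in A704, 7.67 and 2.14 in HK2, and 4.0 and 0.90 in CAKI-1. Every LATS library lay below every control library, and 22.5 to 30.7% of the control level was left. In bulk RNA fewer cells with a transcript and less of it per cell cannot be told apart. The log2 difference was -1.36 (SE 0.11, adjusted p = 1.79e-04, limma with Benjamini-Hochberg adjustment over all genes tested). LATS1 (chromosome 6, 149658153 to 149718256, minus strand, GRCh38) also lay below both PTPN14 siRNAs, by log2 differences of -1.64 and -1.47 (adjusted p = 6.55e-06 and 3.97e-05). LATS2, the second LATS kinase gene, had 11.87 and 13.08 in A704, 8.17 and 8.02 in HK2 and 7.21 and 8.82 in CAKI-1 with control and LATS siRNA. Its log2 difference was 0.12 (SE 0.09, 95% confidence interval -0.07 to 0.31, adjusted p = 0.618), and the groups overlapped. PTPN14 stood at 19.14 and 20.13, 51.84 and 43.87, and 18.51 and 20.97 in the same order of lines, with an estimate of 0.00 (SE 0.11, adjusted p = 0.996) whose sign turned with other scalings and left-out libraries.

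The transcripts of the coactivators did not pass. YAP1 had FPKM 36.07 with control and 33.01 with LATS siRNA in A704, 27.98 and 22.59 in HK2, and 18.58 and 17.63 in CAKI-1. It lay lower in all 3 lines, with a log2 difference of -0.16 (SE 0.08, 95% interval -0.33 to 0.0032, adjusted p = 0.451). WWTR1 had -0.06 (SE 0.11, adjusted p = 0.864), with the lines split in sign. These are RNA levels, and the phosphorylation and location of the proteins were not measured.

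Across all genes, 15 passed the adjusted p of 0.05, which is 0.122% of those tested. Of these 3 rose (0.0244%) and 12 fell (0.0978%). All 15 differed 1 way in every line, as 37.2% of all tested genes did. At an unadjusted p under 0.05 there were 1381 genes (11.2%). The falls ran from 22.5 to 78.6% of control in the same line and the rises from 138 to 325%. The lowest-ranked gene that passed was PTPMT1 (adjusted p = 0.0358), and the first that did not was TVP23B (log2 difference -0.61, adjusted p = 0.0592).

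**Figure D1:**
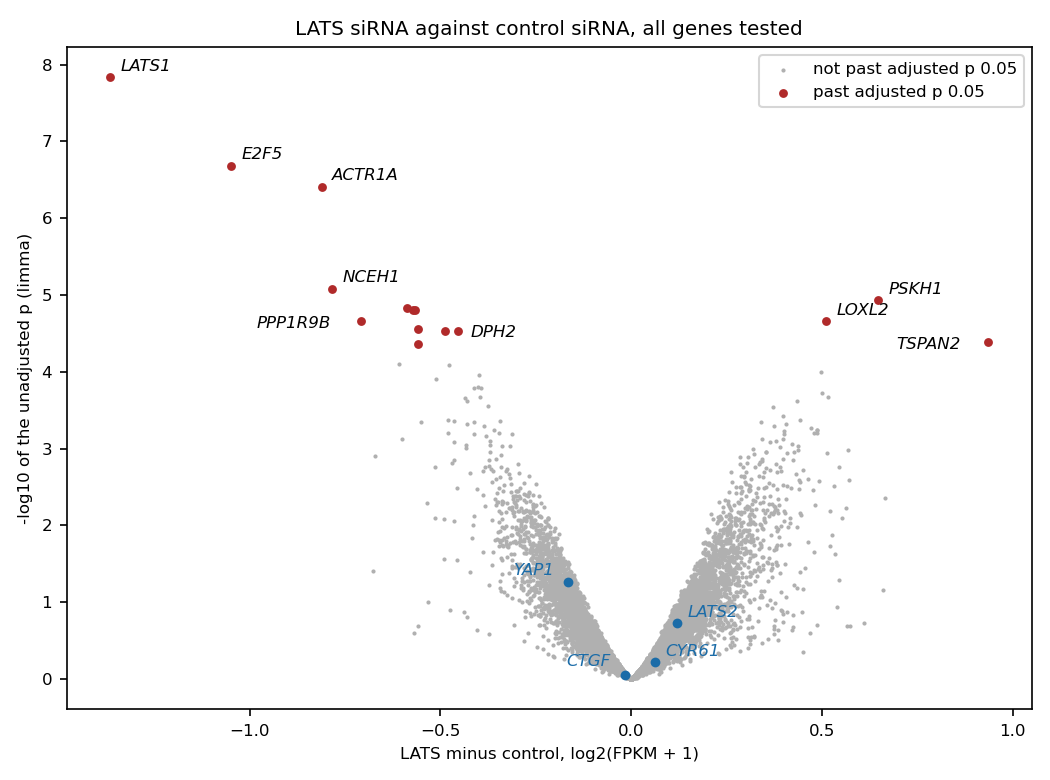
LATS minus control difference in log2(FPKM + 1) on the x axis against -log10 of the unadjusted limma p on the y axis, 1 point for each of 12276 genes. Red points passed the adjusted p of 0.05 (15 genes, of which 9 are named), with LATS1, E2F5 and ACTR1A apart from the rest; blue points are YAP1, LATS2, CTGF and CYR61, which did not pass.

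E2F5 and ACTR1A followed in the order of p. E2F5, an E2F factor that represses cell cycle genes together with pocket proteins, had FPKM 6.35 with control and 2.64 with LATS siRNA in A704, 6.97 and 3.26 in HK2, and 11.24 and 4.23 in CAKI-1. The highest LATS library lay below the lowest control library. The log2 difference was -1.05 (SE 0.11, adjusted p = 0.00127). With ACTR1A, which encodes the Arp1 filament of dynactin, the cofactor of the dynein motor, control and LATS values were 42.37 and 23.28, 75.44 and 43.39, and 68.42 and 38.53. The LATS level was 54.9 to 57.5% of control in every line, although the HK2 LATS library exceeded the A704 control. Its fall was -0.81 (SE 0.09, adjusted p = 0.00159). LATS1, E2F5 and ACTR1A kept their call in all 12 fits that left out 1 library, with adjusted p up to 0.00424, 0.0154 and 0.0297. With a whole line left out, E2F5 lost its call for any line, ACTR1A without HK2 or CAKI-1 and LATS1 without CAKI-1.

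E2F5 lies on chromosome 8 and ACTR1A on chromosome 10 (102461881 to 102502711, minus strand). E2F5 shares 969 of its 5928 annotated exon bases with C8orf59 on the opposite strand, whose log2 difference was -0.13. The strand setting of the counting is not given in the sources used here, and reads of such a pair may not be told apart.

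TFDP1, which encodes DP1, the dimer partner that E2F proteins need to bind DNA, fell with E2F5. Its FPKM went from 29.04 to 22.83 in A704, from 67.24 to 44.62 in HK2 and from 48.06 to 32.62 in CAKI-1. The log2 difference was -0.49 (SE 0.08, adjusted p = 0.0278). E2F5 and TFDP1 were the 2 of 10 tested E2F and DP family genes that fell, and the other 8 did not pass. With these 2 counted, 9 of 10 estimates were below 0, against 6264 of 12276 over all genes. In this family, chosen after the values were seen, E2F1 had -0.05, E2F4 -0.12 and TFDP2 -0.01. Of 11 tested dynactin subunit genes, likewise chosen later, ACTR1A fell and 8 estimates were above 0, among them DCTN1 at 0.16 and ACTR1B, the close paralogue of ACTR1A, at 0.09.

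NCEH1, PPP1R9B and SNRPG were among the other falls. NCEH1, a hydrolase of cholesterol esters (chromosome 3, 172630249 to 172711218, minus strand), had FPKM 39.58 with control and 22.49 with LATS siRNA in A704, 97.35 and 55.79 in HK2 and 54.55 and 31.59 in CAKI-1. All 3 lines kept 56.8 to 57.9% of control, a difference of -0.78 (SE 0.11, adjusted p = 0.0243). For PPP1R9B, or spinophilin, a scaffold that targets protein phosphatase 1 to actin (chromosome 17, 50133735 to 50150630, minus strand), the values were 12.64 and 8.95, 15.06 and 7.16, and 7.09 and 4.0. HK2 fell furthest, to 47.5% of control, and the estimate over lines was -0.71 (SE 0.11, adjusted p = 0.027). SNRPG encodes a protein of the Sm ring around spliceosomal RNAs (chromosome 2, 70281362 to 70293771, minus strand), and its FPKM went from 45.48 to 29.83, from 70.18 to 47.2 and from 57.08 to 38.73. The lines were nearly alike at 65.6 to 67.9% of control, with a difference of -0.57 (SE 0.08, adjusted p = 0.0243). Of 8 tested Sm genes, a family chosen after the values were seen, SNRPG alone passed. With SNRPG counted, 7 of 8 estimates were below 0, against 6264 of 12276 over all genes. SNRPE had -0.28, while the lines split in sign for SNRPB, SNRPD1, SNRPD2, SNRPD3 and SNRPF.

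RCC2, a protein of the centromere and of adhesion sites (chromosome 1, 17406760 to 17439724, minus strand), fell from 42.56 to 28.06 in A704, from 64.56 to 40.27 in HK2 and from 30.41 to 21.0 in CAKI-1. It kept 62.4 to 69.1% of control, a difference of -0.59 (SE 0.09, adjusted p = 0.0243). OAF (chromosome 11, 120210767 to 120230332, plus strand) went from 16.35 to 12.32, from 5.03 to 2.72 and from 11.28 to 6.91, with -0.57 (SE 0.09, adjusted p = 0.0243). Both genes had the same sign in the 3 lines, with overlapping groups because the lines differ in level. ANKRD13A, a ubiquitin-binding protein of receptor endocytosis (chromosome 12, 109999186 to 110039763, plus strand), went from 42.49 to 30.9, from 19.38 to 13.01 and from 13.99 to 8.29. Its difference was -0.56 (SE 0.09, adjusted p = 0.0278), while the other 3 tested ANKRD13 genes lay between -0.03 and 0.03.

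PTPMT1 and DPH2 closed the falls. PTPMT1, a mitochondrial phosphatase of cardiolipin synthesis (chromosome 11, 47565430 to 47573461, plus strand), had FPKM 14.82 and 10.07 in A704, 12.18 and 8.63 in HK2 and 12.66 and 7.35 in CAKI-1. All LATS libraries lay below all controls, as for LATS1 and E2F5 and for no other of the 15, and the difference was -0.56 (SE 0.09, adjusted p = 0.0358). Over all tested genes 60 (0.489%) were without overlap in that direction and 37 (0.301%) in the other. PTPMT1 shares 721 of its 2740 exon bases with NDUFS3 on the same strand, which had -0.23, and 1265 with KBTBD4 on the opposite strand, at 0.03. DPH2, an enzyme of the diphthamide modification of elongation factor 2 (chromosome 1, 43970000 to 43973369, plus strand), went from 13.79 to 9.32, from 22.7 to 15.71 and from 16.52 to 12.86. Its difference was -0.45 (SE 0.07, adjusted p = 0.0278). Of 7 tested diphthamide genes, a family chosen after the values were seen, DPH2 alone passed. With DPH2 counted, 6 of 7 estimates were below 0, against 6264 of 12276 over all genes.

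Of the 3 rises, LOXL2, which oxidises lysines of collagen and elastin for cross-linking, was the most abundant. LOXL2 (chromosome 8) had FPKM 263.0 with control and 384.64 with LATS siRNA in A704, 126.05 and 173.8 in HK2 and 82.54 and 119.06 in CAKI-1. Each line lay at 138 to 146% of its control, and the difference was 0.51 (SE 0.08, adjusted p = 0.027). The family members LOX and LOXL4 had 0.22 and 0.34 and did not pass. PSKH1, a serine kinase (chromosome 16, 67893272 to 67929678, plus strand), went from 4.57 to 8.37 in A704, from 2.75 to 4.16 in HK2 and from 8.72 to 15.11 in CAKI-1. Its difference was 0.65 (SE 0.09, adjusted p = 0.0243). The tetraspanin membrane protein TSPAN2 (chromosome 1, 115048011 to 115089500, minus strand) went from 1.73 to 3.98, from 0.83 to 1.74 and from 2.28 to 7.41. It rose most in CAKI-1, to 325% of control, with an estimate of 0.94 (SE 0.15, adjusted p = 0.0358). In HK2 its control level was below FPKM 1, where log2(FPKM + 1) compresses a difference.

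**Figure D2:**
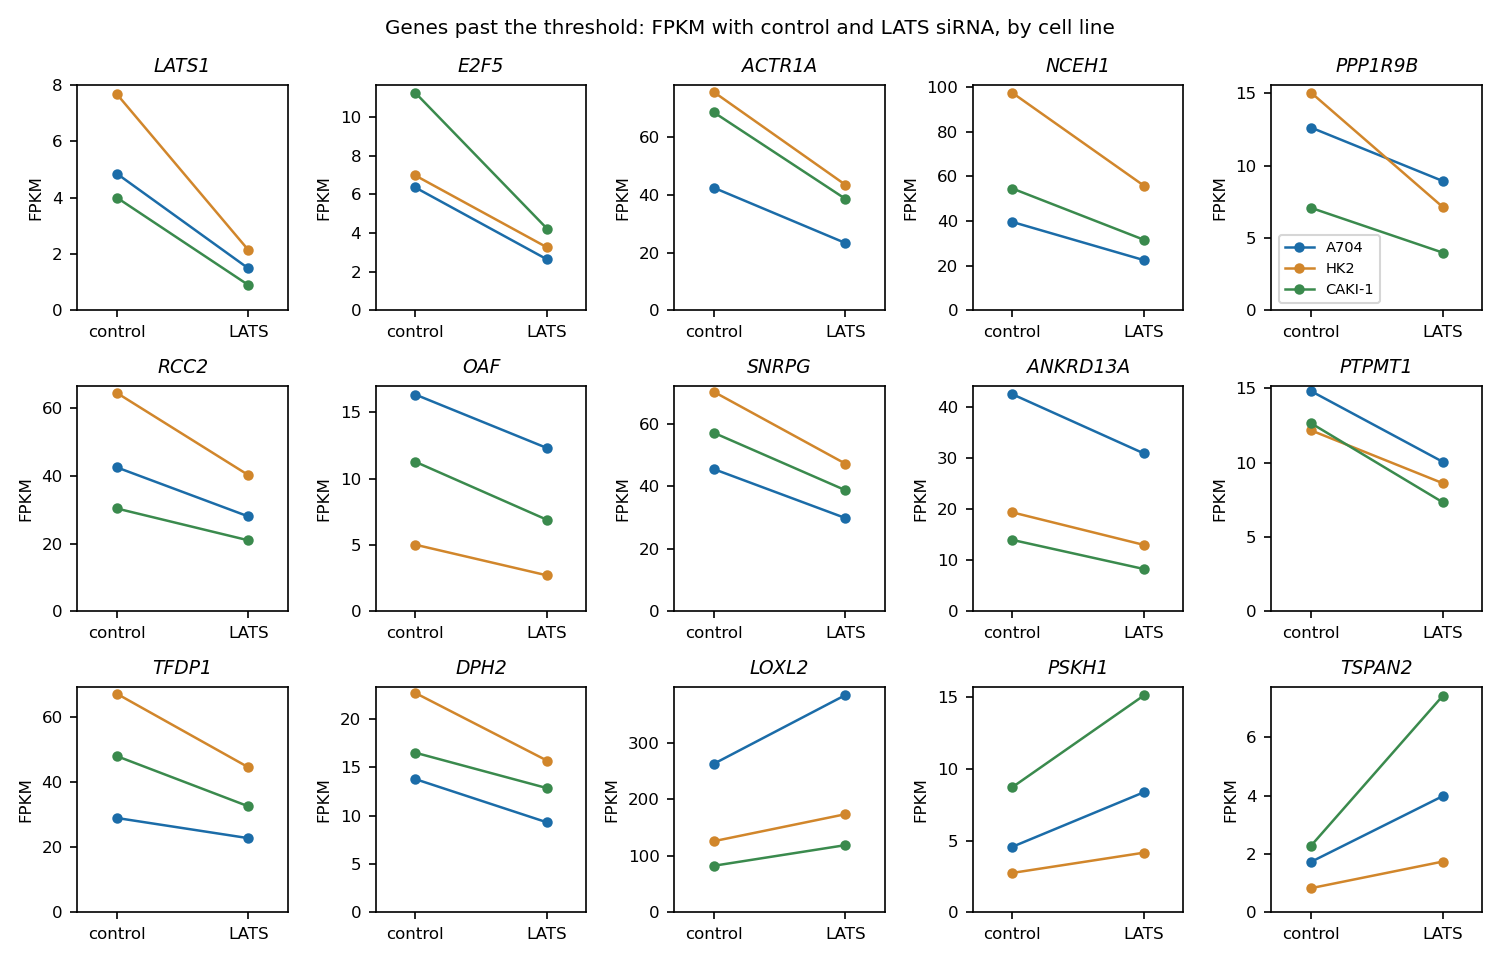
FPKM (y axis, linear, from 0) with control and LATS siRNA (x axis) for the 15 genes that passed, 1 line and pair of points per cell line, each point 1 library. The 3 lines slope down in the 12 panels from LATS1 to DPH2 and up for LOXL2, PSKH1 and TSPAN2, while levels of several genes differ between cell lines by more than the siRNA difference.

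Other genes with the smallest p among the rises did not pass and are given as values. TIMP2, an inhibitor of matrix metalloproteinases, had FPKM 15.44 and 23.91 in A704, 35.17 and 43.19 in HK2 and 191.04 and 290.89 in CAKI-1, with 0.50 (SE 0.09, adjusted p = 0.0681). ANKRD52, a regulatory subunit of protein phosphatase 6, had 21.21 and 28.92, 23.69 and 33.07, and 24.94 and 39.73, with 0.52 (SE 0.10, adjusted p = 0.0991). The ANKRD52 groups did not overlap. C1QTNF6, a secreted protein of the C1q and TNF related family, had 0.50 (SE 0.10, adjusted p = 0.0976). KIAA1522, TNFAIP1, SLC2A3 and DKK3 lay higher in every line with estimates of 0.37 to 0.44 and adjusted p of 0.103 to 0.144.

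The promoters of genes that rose and of YAP/TAZ targets were set side by side, since GGAATG is the core that TEAD factors bind and TGANTCA the core of AP-1. The sequences are those of RefSeq (GRCh38.p14), the 250 bases before the transcript start, read 5′ to 3′ on the gene's strand. Capitals mark GGAATG or its reverse complement, and TGANTCA, which reads the same on both strands. PSKH1 (chr16:67893004-67893253, plus strand) and TSPAN2 (chr1:115089504-115089753, minus strand) are shown because they rose, and ANKRD1 (chr10:90921088-90921337, minus strand) and NUAK2 (chr1:205321746-205321995, minus strand) because they hold the core before YAP/TAZ target genes.
PSKH1: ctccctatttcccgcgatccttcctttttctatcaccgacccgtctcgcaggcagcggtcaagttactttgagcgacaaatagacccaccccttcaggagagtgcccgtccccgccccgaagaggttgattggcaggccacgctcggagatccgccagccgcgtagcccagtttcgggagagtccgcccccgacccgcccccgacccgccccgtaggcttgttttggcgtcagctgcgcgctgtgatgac
TSPAN2: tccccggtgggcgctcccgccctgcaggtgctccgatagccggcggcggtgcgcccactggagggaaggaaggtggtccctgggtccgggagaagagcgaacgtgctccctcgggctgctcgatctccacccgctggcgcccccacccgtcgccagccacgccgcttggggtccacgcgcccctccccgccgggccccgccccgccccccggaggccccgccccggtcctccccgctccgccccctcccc
ANKRD1: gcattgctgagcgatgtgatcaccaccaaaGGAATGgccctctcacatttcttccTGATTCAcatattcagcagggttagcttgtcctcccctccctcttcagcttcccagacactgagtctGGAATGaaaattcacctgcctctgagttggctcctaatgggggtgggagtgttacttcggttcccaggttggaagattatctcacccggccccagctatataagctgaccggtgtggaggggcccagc
NUAK2: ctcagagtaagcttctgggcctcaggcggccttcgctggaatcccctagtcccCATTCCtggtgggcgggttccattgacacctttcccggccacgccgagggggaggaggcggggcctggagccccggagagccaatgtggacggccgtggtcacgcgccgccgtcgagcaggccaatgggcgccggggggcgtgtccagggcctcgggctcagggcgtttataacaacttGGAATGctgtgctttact

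Neither PSKH1 nor TSPAN2 holds either core in this window, which says only that these letters are not there. ANKRD1 holds GGAATG at 2 places and TGANTCA at 1, and NUAK2 holds the GGAATG core at 2 places. In the 300-base windows that also take the first 50 transcribed bases, 0 of the 2 rises and 0 of the 7 falls with an entry hold GGAATG or TGANTCA. Of 6680 tested genes with an entry 10.4% hold GGAATG and 4.43% TGANTCA. Of YAP/TAZ targets with an entry, 6 of 16 hold GGAATG (37.5%), among them LATS2 and PTPN14. The expression of both printed targets did not pass: ANKRD1 had -0.20 (SE 0.15, adjusted p = 0.619) and NUAK2, a kinase, 0.30 (SE 0.11, adjusted p = 0.341).

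The YAP/TAZ target list held 40 tested genes, and none passed the threshold. At an unadjusted p under 0.05, 10 lay higher and 0 lower, against 701 and 680 of all tested genes. Their median log2 difference was 0.07 against -0.003 over all tested genes, with 23 of 40 estimates above 0, against 6012 of 12276 (49%) over all genes. The medians were 0.03 (A704), 0.10 (HK2) and 0.09 (CAKI-1), and 14 members lay higher and 4 lower in every line. Over all 12276 tested genes 2240 lay higher and 2329 lower in every line. CTGF, CYR61 and ANKRD1 fall outside the naming rule and are given as the usual reporters of the pathway. The matricellular gene CTGF had FPKM 4.28 with control and 4.06 with LATS siRNA in A704, 16.42 and 15.39 in HK2 and 18.71 and 20.15 in CAKI-1. Its estimate was -0.02 (SE 0.10, 95% interval -0.24 to 0.21, adjusted p = 0.969). CYR61, the related matricellular gene, had 106.62 and 89.48, 520.25 and 593.47, and 63.05 and 75.18, with 0.06 (SE 0.12, 95% interval -0.19 to 0.32, adjusted p = 0.865). For neither gene did the lines share a direction, and the sign of both estimates turned under 1 or more left-out libraries. The cardiac repeat protein ANKRD1 had 27.33 and 24.66, 13.73 and 12.47, and 3.18 and 2.30, lower in each line.

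The members of this list with the smallest p lay higher but did not pass. AXL, a receptor tyrosine kinase, had FPKM 58.48 and 69.47 in A704, 81.44 and 95.65 in HK2 and 47.74 and 63.03 in CAKI-1, with 0.29 (SE 0.08, adjusted p = 0.245). MYOF, a membrane repair protein, had 93.94 and 114.95, 79.82 and 88.6, and 98.97 and 118.44, with 0.23 (SE 0.07, adjusted p = 0.277). AMOTL2, an angiomotin that binds YAP1, had 0.26 (SE 0.09, adjusted p = 0.304). With PTPN14-1 against the same control libraries these genes had 0.56, 0.34 and 0.70, and the target list had medians of 0.24, 0.26 and 0.30 in A704, HK2 and CAKI-1. With PTPN14-2 the list medians were -0.02, 0.06 and 0.06. The list holds PTPN14, which these siRNAs target, and LATS2, which the LATS siRNA may target.

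Among the Hippo kinases and adaptors, LATS1 was the 1 of 46 tested genes that passed; the median was 0.01, with 25 estimates above 0. WWC1 (KIBRA), an upstream scaffold, lay higher in all lines at 0.27 (SE 0.09, adjusted p = 0.304), and DLG5, a polarity scaffold, at 0.27 (SE 0.09, adjusted p = 0.296). None of the 12 tested YAP, TAZ, TEAD and VGLL genes passed, with a median of -0.01; TEAD3 had 0.16 (adjusted p = 0.577).

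The 15 genes were then read against the PTPN14 libraries. This difference is taken between LATS and PTPN14 libraries, and the controls enter only the cell line terms and the spread of the fit. The LATS libraries are those in which the 15 genes were found, so the 2 comparisons share them and the counts are a description, not separate evidence. Of the 15 genes, 13 also differed between LATS siRNA and the mean of both PTPN14 siRNAs (background 4.37% of all genes): the 12 falls were lower with LATS siRNA (2.05%) and LOXL2 was higher (2.32%). The falls differed from the PTPN14 mean by -1.55 to -0.33. E2F5 had -1.32 against PTPN14-1 and -1.22 against PTPN14-2 (adjusted p = 3.39e-05 and 7.09e-05), ACTR1A -1.14 and -0.93 (2.25e-05 and 9.38e-05) and NCEH1 -1.13 and -1.22 (1.52e-04 and 8.51e-05). All 3 genes lay in the PTPN14 libraries above the LATS library of the same line. Against PTPN14-1 alone 11 genes passed (background 8.9%), against PTPN14-2 alone 12 (3.89%), and against each of them 10. LOXL2 was higher with LATS siRNA by 0.35 and 0.32 (adjusted p = 0.0176 and 0.0429).

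TSPAN2 and PSKH1 did not differ from the PTPN14 mean past the threshold. TSPAN2 had FPKM 4.9 and 4.44 with PTPN14-1 and PTPN14-2 in A704, 2.27 and 1.67 in HK2 and 11 and 7.71 in CAKI-1, and LATS minus the PTPN14 mean was -0.19 (SE 0.13, adjusted p = 0.381). All 3 siRNAs lay above the control of the same line. PSKH1 had 7.91 and 8.28, 3.28 and 4.0, and 12.17 and 12.45, with 0.16 (SE 0.08, adjusted p = 0.242). Against the shared control libraries TSPAN2 had 0.94 with LATS, 1.27 with PTPN14-1 and 0.98 with PTPN14-2, and PSKH1 had 0.65, 0.44 and 0.54, all past the threshold. Since the 3 differences share their controls, their likeness is not separate evidence. ANKRD52, not past with LATS siRNA, had 0.52, 0.47 and 0.46. Of the falls, PPP1R9B also fell with PTPN14-1 against those controls (-0.41, adjusted p = 0.0475) and had -0.09 with PTPN14-2, and ACTR1A rose with PTPN14-1 (0.33, adjusted p = 0.0429). OAF, SNRPG, PTPMT1 and TFDP1 had estimates from -0.30 to -0.06 with the PTPN14 siRNAs, none past the threshold.

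**Figure D3:**
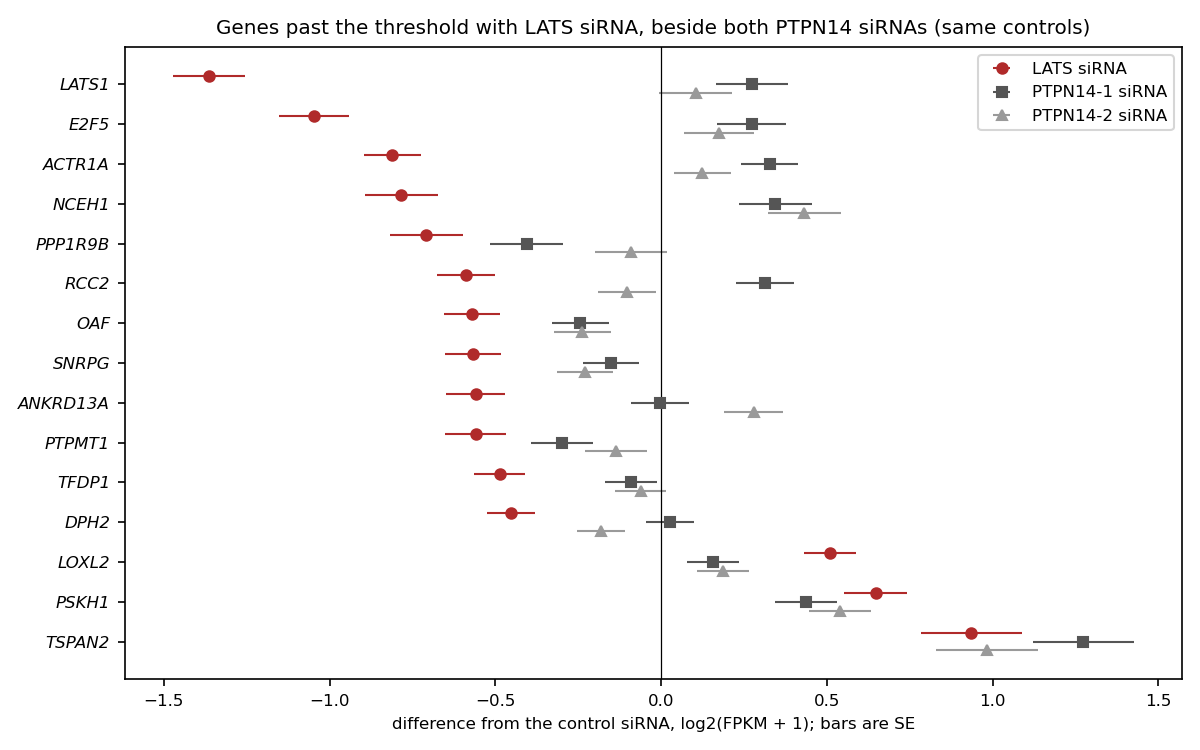
Difference from the control siRNA in log2(FPKM + 1) on the x axis for the 15 genes on the y axis, with LATS (red circles), PTPN14-1 (dark squares) and PTPN14-2 (light triangles); bars are SE of the limma fit and the 3 differences share the same 3 control libraries. LATS1, E2F5, ACTR1A and NCEH1 lie below 0 with LATS siRNA and above 0 with both PTPN14 siRNAs, while TSPAN2, PSKH1 and LOXL2 lie above 0 and PPP1R9B, OAF, SNRPG, PTPMT1 and TFDP1 below 0 with all 3.

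Differences within a line rest on 1 library per siRNA and have no replicate check. In A704 16 genes lay higher and 3 lower by at least 1 in log2(FPKM + 1) (0.155% of tested genes). In HK2 these counts were 0 and 4 (0.0326%) and in CAKI-1 6 and 10 (0.13%). Because 1 is added to each value, this limit is stricter than a 2-fold change in FPKM, most of all for low genes. LATS1 was past this limit in every line. E2F5 and DEFB1, a defensin of tubular epithelium, were past it in A704 and CAKI-1, and DEFB1 had 0.42 in the other direction in HK2. In FPKM itself E2F5 was at 41.6, 46.8 and 37.6% of control in A704, HK2 and CAKI-1, and TSPAN2 at 230, 210 and 325%. By more than 0.5 on the log2 scale, TSPAN2 lay higher in all 3 lines, and LATS1, E2F5, ACTR1A, NCEH1, RCC2 and SNRPG lay lower.

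Some genes differed in 1 line alone, by less than 0.25 in the others; the interaction of siRNA and line was not tested. In A704 the dehydrogenase gene DHRS2 went from 4.49 to 22.07 and the interferon-induced genes OAS2 and IFI27 from 15.37 to 54.62 and from 33.94 to 92.76. HK2 had the receptor gene NOTCH1 at 5.31 and 2.1, RASSF4 at 2.74 and 5.96 and ZNF787 at 7.41 and 3.67. CAKI-1 had the chemokine gene CXCL1 at 173.54 with control and 75.39 with LATS siRNA. The smooth muscle genes MYL9 and TAGLN stood in CAKI-1 at 30.61 and 70.6, and at 9.98 and 20.71.

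Among lists with at least 10 tested members, interferon response genes showed the widest gap between the medians of the lines. None of its 48 tested genes rose or fell, and 48 of 48 estimates were above 0 (6012 of 12276, 49%, over all genes), with a median of 0.28. In every line 21 members lay higher and 0 lower, against 2240 and 2329 of all 12276 tested genes. At an unadjusted limma p under 0.05, 2 members lay higher and 0 lower, against 701 and 680 of all tested genes. In A704 the median was 0.65 and 48 of 48 members lay higher; in HK2 it was 0.11 with 35 higher, and in CAKI-1 0.07 with 28 higher. Without the A704 line 32 of 48 estimates were above 0 and the median was 0.10. ISG15, a ubiquitin-like interferon-induced protein, had FPKM 91 with control, 182.79 with LATS siRNA, 330.8 with PTPN14-1 and 80.19 with PTPN14-2 in A704. IFIT1, which binds viral RNA, had 69.28, 131.76, 190.33 and 56.79. In A704 the list median was 0.98 for PTPN14-1 and -0.06 for PTPN14-2 against the same control library, the one with an integrity number of 9.6. LATS minus PTPN14-2, a difference without that control, had a median of 0.77 in A704 and LATS minus PTPN14-1 had -0.29. A part of RNA integrity in these values was not tested.

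**Figure D4:**
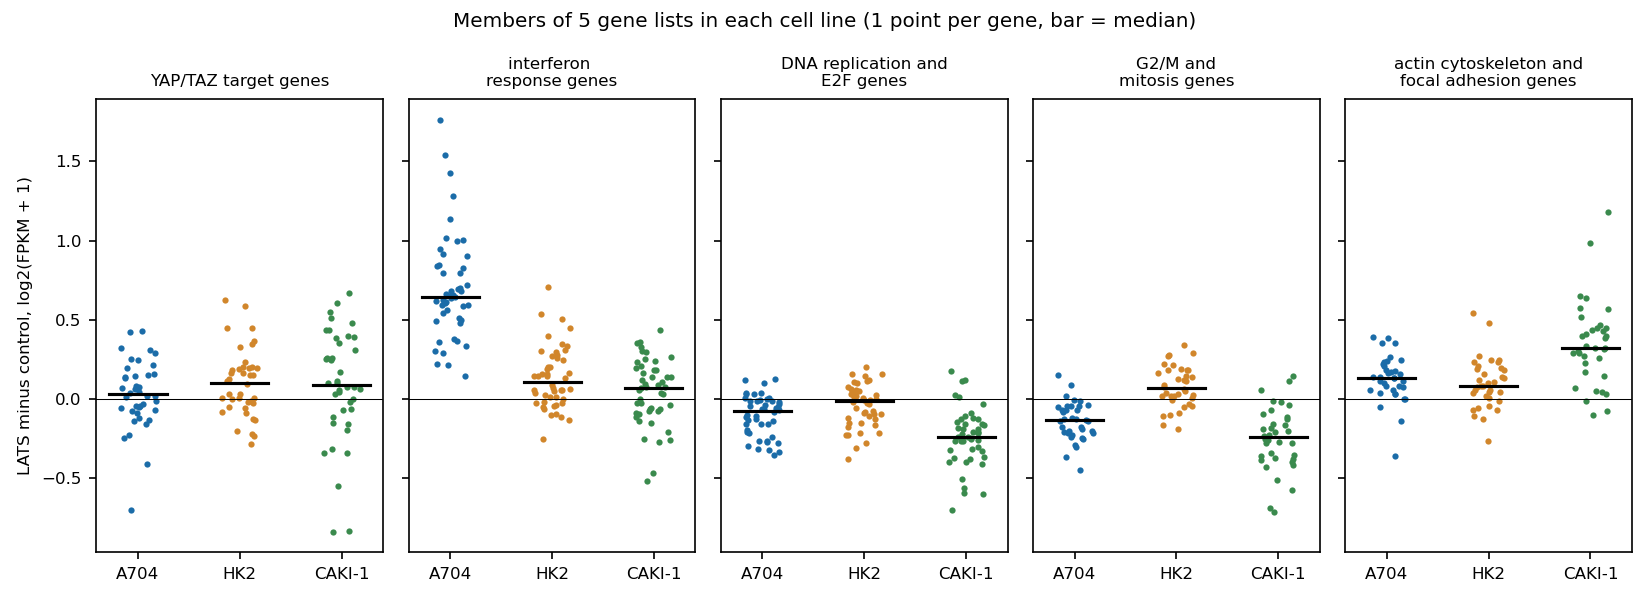
LATS minus control in log2(FPKM + 1) on the y axis by cell line on the x axis for 5 gene lists, 1 point per tested gene (1 library per siRNA and line) with a bar at the median; sideways scatter has no meaning. Interferon response genes lie highest in A704 (median 0.65), the medians of replication and mitosis genes lie lowest in CAKI-1 at -0.24, and that of actin genes lies highest there at 0.32.

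Medians of both cell cycle lists lay below 0 in A704 and CAKI-1, and no member passed. Of 46 DNA replication and E2F genes, a list without E2F5 or TFDP1, 43 estimates were below 0 (6264 of 12276 over all genes). The median was -0.14, and 20 members lay lower in every line, against 2329 of all 12276 tested genes. By line the list medians were -0.08 (A704), -0.01 (HK2) and -0.24 (CAKI-1). With PTPN14-1 against the same control libraries they were -0.12, -0.20 and -0.11, and with PTPN14-2 -0.004, 0.02 and -0.07. RFC3, a clamp loader subunit, had FPKM 15.87 and 12.2, 21.58 and 18.45, and 15.15 and 10.36, with -0.36 (SE 0.08, adjusted p = 0.146). The helicase subunits MCM4 and GINS2 each had -0.23. Of 36 G2/M and mitosis genes 32 estimates were below 0, with medians of -0.14, 0.07 and -0.24, so HK2 went the other way. With PTPN14-1 the G2/M medians were -0.22, -0.07 and -0.02, and with PTPN14-2 -0.06, 0.08 and 0.08. CDK1, the mitotic kinase, had 72.6 and 52.84 in A704, 112.07 and 113.5 in HK2 and 58.62 and 39.01 in CAKI-1, with -0.34 (SE 0.12, adjusted p = 0.353). Among 26 p53 targets, with a median of 0.01, RRM2B, a ribonucleotide reductase subunit, had the smallest p (-0.48, SE 0.10, adjusted p = 0.144).

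Medians above 0 were found for the actin, matrix, hypoxia, sterol and lysosome lists, in which LOXL2 alone passed. Over all tested genes 6012 of 12276 estimates (49%) were above 0. The actin and focal adhesion list had 33 of 35 estimates above 0 and a median of 0.20. In every line 23 members lay higher, against 2240 of all 12276 tested genes. By line the list medians were 0.13 (A704), 0.08 (HK2) and 0.32 (CAKI-1). With PTPN14-1 against the same control libraries they were 0.20, 0.19 and 0.18, and with PTPN14-2 -0.04, -0.03 and -0.08. CNN2, a calponin that binds actin, had FPKM 34.21 and 37.66, 105.55 and 125.5, and 35.28 and 55.31, with 0.34 (SE 0.10, adjusted p = 0.277). The tropomyosins TPM4 and TPM1 had 0.32 and 0.26, neither past the threshold. In the matrix list LOXL2 was the 1 of 41 that rose, 35 estimates were above 0 and the median was 0.16. SPARC, a collagen-binding glycoprotein, had 8.73 and 12.1 in A704, 85.13 and 122.68 in HK2 and 398.31 and 569.65 in CAKI-1, with 0.49 (SE 0.11, adjusted p = 0.146), and the laminin chain LAMB2 had 0.30. Hypoxia and glycolysis genes had 33 of 37 estimates above 0 and a median of 0.17, highest in HK2 at 0.27. Sterol and fatty acid synthesis genes had 29 of 33 and a median of 0.15, with the regulator SREBF2 at 0.30 (adjusted p = 0.278). Lysosome and autophagy genes had 29 of 33 and 0.13, with CTSA, a lysosomal protease, at 0.35. Sterol medians in A704, HK2 and CAKI-1 were 0.37, 0.06 and 0.13 with PTPN14-1, and 0.21, 0.07 and 0.20 with PTPN14-2. Those of the lysosome list were 0.29, 0.01 and -0.05, and 0.20, 0.01 and -0.13.

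MAPK feedback and immediate early genes had 21 of 32 estimates below 0 (6264 of 12276 over all genes) and a median of -0.07, and none passed. In A704, HK2 and CAKI-1 the list medians were 0.01, -0.12 and -0.07. With PTPN14-2 against the same control libraries they were lower or alike, at -0.29, -0.12 and -0.27, and with PTPN14-1 0.01, -0.01 and -0.02. PHLDA1, induced by growth factor signalling, had FPKM 58.64 and 48.07 in A704, 29.94 and 19.19 in HK2 and 15.7 and 7.92 in CAKI-1, with -0.60 (SE 0.14, adjusted p = 0.158). SPRY2, an inhibitor of receptor signalling to ERK, had -0.46 and the ERK phosphatase gene DUSP6 -0.51. Both lay lower in each line. In the Wnt list, with a median of -0.03, the secreted inhibitor gene DKK1 had 4.22 and 1.89, 0.29 and 0.06, and 16.4 and 8.48, with -0.67 (SE 0.16, adjusted p = 0.187).

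**Figure D5:**
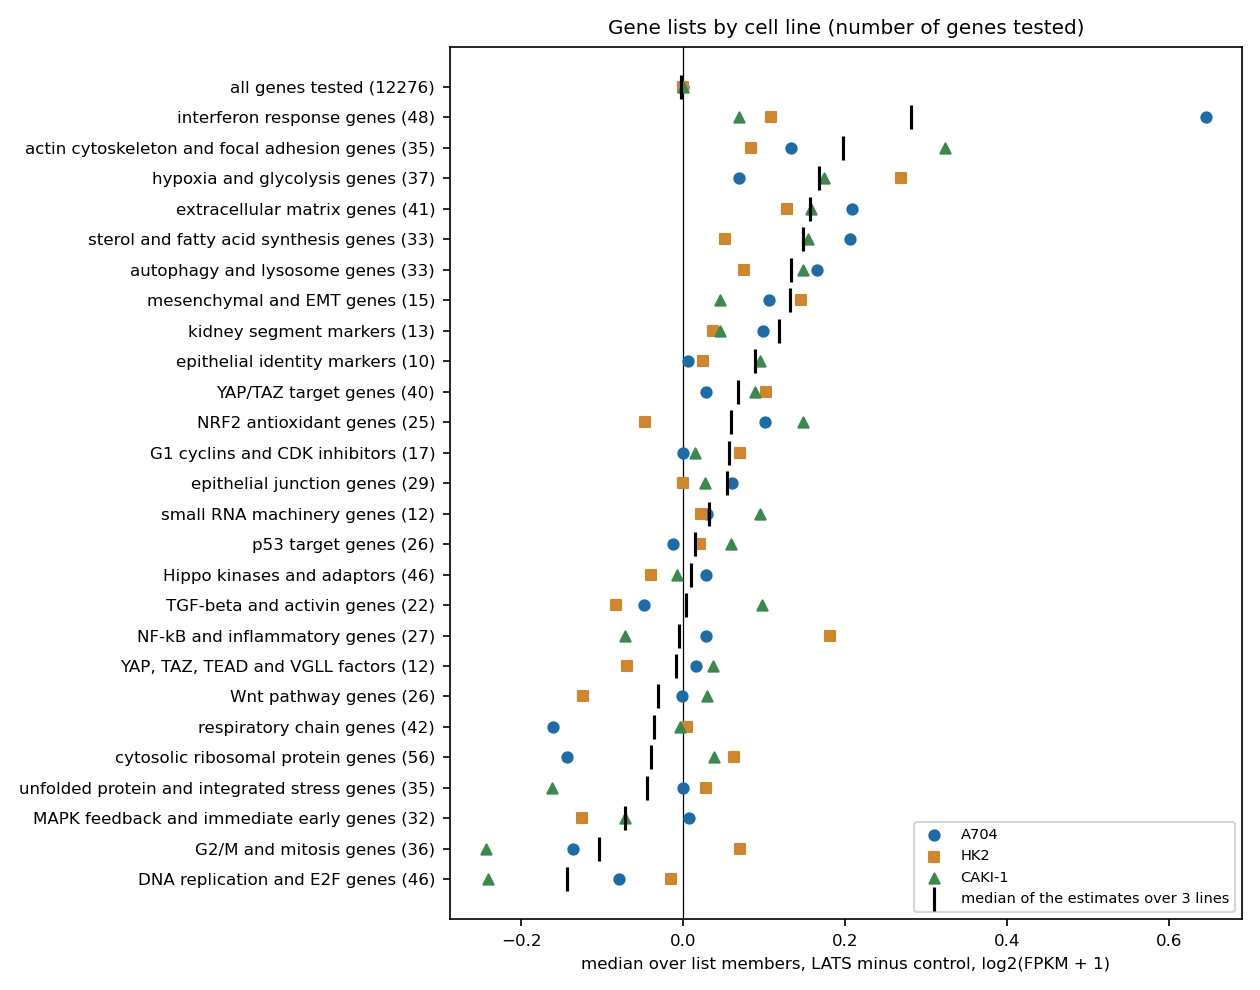
Median LATS minus control difference in log2(FPKM + 1) (x axis) over the tested members of each list with at least 10 of them (y axis, number in brackets), by cell line (symbols) and for the estimates over 3 lines (bar). The bar for all tested genes is at -0.003; interferon genes lie farthest above it and DNA replication genes farthest below, and the lines of a list can differ by more than its distance from 0.

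In 28 of the 30 lists no member passed; the 2 exceptions are the Hippo list with LATS1 and the matrix list with LOXL2. Mesenchymal and EMT genes had a median of 0.13 with 8 of 15 estimates above 0, and kidney segment markers 0.12 with 9 of 13. The median of G1 cyclins and CDK inhibitors was 0.06 and that of TGF-beta and activin genes 0.00. Unfolded protein and stress genes had a median of -0.04 over the lines and -0.16 in CAKI-1. Respiratory chain genes had a median of -0.04, with 15 of 42 estimates above 0, and -0.16 in A704. Cytosolic ribosomal protein genes had a median of -0.04, which was 0.04 without the A704 line. RPLP0, a ribosomal stalk protein, had FPKM 949.82 and 599.83 in A704, 959.04 and 692.25 in HK2 and 1087.64 and 823.07 in CAKI-1, without overlap, but did not pass (-0.51, SE 0.09, adjusted p = 0.0762). Ribosomal genes can share reads with processed pseudogenes.

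The number of genes that passed changed when 1 library was left out. It was 3 without the A704 control, the CAKI-1 control or the CAKI-1 LATS library. Without the HK2 control, the A704 LATS or the HK2 LATS library it was 6, and without the HK2 PTPN14-1 library 8. Leaving out any other PTPN14 library gave 10 to 20. Leaving out a LATS or control library also leaves fewer pairs to compare, and the part of this in the counts was not tested. The 12 genes other than LATS1, E2F5 and ACTR1A each lost the call in at least 5 of the 12 fits that left out 1 library.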

How the data were processed

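The deposited values are FPKM by gene symbol, with 2 decimals, in 1 table. The authors' unit was read from the numbers, which are not whole and sum to between 344334 and 396360 per library. The submitters' processing notes name STAR 2.4.0g1 and the build GRCh38.p1. The counter, its annotation, strand setting and library scaling were not given in the sources used here. Of 20979 entries, 695 symbols stand on several lines and 29 carry dates in place of symbols; these dates are named nowhere. FPKM keeps no counts, so depth was estimated from whole-read steps in low genes (30 to 59 with a single exon in each library). The depth taken was the one with the highest share of these genes on its steps, 83.3 to 97.8% by library. The median share over all depths tried was 6.94 to 9.66%. Since the depth was picked as the highest of many, setting these shares side by side is no test of it. The estimated depth was 16.9 to 23.3 M reads over the 12 libraries. It is approximate, because gene lengths came from GENCODE. It sets the counting error of low genes.

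Values were tested as log2(FPKM + 1) for genes above FPKM 1 in at least 3 libraries, with limma 3.58.1 in R 4.3.3 (mean-variance trend, robust moderation with statmod 1.5.0). All 12 libraries were fitted with cell line as a block and 4 reagents (control, LATS, PTPN14-1, PTPN14-2), leaving 6 residual degrees of freedom, with Benjamini-Hochberg adjustment over 12276 genes. LATS and control libraries of 1 line pair because they are the same line; their deviations from the group means correlated at 0.970 to 0.983. Differences within a line were called at 1 or more in log2(FPKM + 1), with no test. No list test was run: lists are described by counts and medians.

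The libraries, gene lists and tests were chosen with earlier results of these data known. The naming rule takes LATS1, LATS2, PTPN14, YAP1 and WWTR1, up to 15 rises and 15 falls past the threshold with 1 direction in all lines and a mean FPKM above 1, filled to 10 by the smallest p, up to 4 members per list, and 3 genes per line that differed there alone. Other named genes are family members of genes that passed, usual pathway reporters or genes counted in 5 or fewer, chosen after their values were seen. Alternatives were pseudocounts of 0.1 and 5, other filters, 3 target levels, the 6 libraries alone, no cell line term, quantile normalisation, median centring, plain limma and each library left out; leaving out a whole line was added after seeing the data. Coordinates and exon overlaps are from GENCODE v29 (GRCh38), and promoters from RefSeq (GRCh38.p14), matched by symbol for 6680 of 12255 uniquely named genes. Scripts were tested on simulated data.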

Additional observations from a re-analysis of the deposited data

How the results depend on the processing

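The 15 calls of LATS against control became 15 with a pseudocount of 0.1, 12 with 5, 16 after quantile normalisation, 14 after median centring, 15 without trend and robust moderation and 18 with a filter at FPKM 5. They fell to 3 without a filter on low values (17167 genes tested), 3 with both PTPN14 siRNAs as 1 target level and 4 with the 6 libraries alone. With no replicate block, the cell line term that pairs the libraries left out, 0 genes passed in limma and 10 were at an unadjusted p under 0.05. Leaving out 1 library gave 3 to 20 calls, the highest without the A704 PTPN14-1 library. Without the A704, HK2 or CAKI-1 line, chosen after seeing the data, 2, 1 and 0 genes passed (1009, 1243 and 736 at an unadjusted p under 0.05). LATS1 was lost in 2 of 25 alternatives, the one without the block and the one without CAKI-1. E2F5 was lost without the block and without any single line, and ACTR1A without the block, without HK2 and without CAKI-1.

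The 537 genes that differed between LATS siRNA and the PTPN14 mean became 167 without a filter, 43 with 1 target level and 0 without the replicate block (43 at an unadjusted p under 0.05). Leaving out 1 library gave 35 (without the CAKI-1 LATS library) to 1309 (without A704 PTPN14-1). The count was 157 without A704 LATS, 250 without A704 PTPN14-2, 290 without HK2 PTPN14-1, 173 and 181 without CAKI-1 PTPN14-2 and PTPN14-1, and 328 without the CAKI-1 control. Leaving out the A704, HK2 or CAKI-1 line gave 150, 11 and 8. Genes with a log2 difference of 1 or more in A704, HK2 and CAKI-1 numbered 85, 66 and 47 with a pseudocount of 0.1. They numbered 7, 1 and 5 with a pseudocount of 5, against 19, 4 and 16 with 1.

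Of 2097 single-gene values under alternatives, 1884 kept direction and side of the threshold, 185 no longer passed, 4 newly passed and 24 changed sign. PTPN14 was at -0.0055 with a pseudocount of 5, -0.0051 after quantile normalisation, -0.032 without A704, -0.083 without CAKI-1 and -0.096 to 0.14 with 1 library left out. CYR61 was at -0.0093 after quantile normalisation, -3.1e-05 without HK2, -0.030 without CAKI-1 and -0.043 to 0.19 with 1 library left out. WWTR1 was at 6.9e-05 without A704 and -0.12 to 0.048 with 1 library left out, and CTGF at 0.0069 without A704, 0.020 without HK2 and -0.065 to 0.036 with 1 library left out. OAS2, IFIT1 and DHRS2 were at -0.021, -0.032 and -0.12 without A704, and NOTCH1 at 0.045 without HK2. The causes of these changes were not tested. With 1 library per siRNA and line, precision is set by the 3 pairs, and genes near FPKM 1 rest on few reads.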
